A study of Rattus norvegicus with 20 samples.

Results

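The effect of the P segment of rat chromosome 4 on gene expression in the femur was read from 20 arrays, the 10 whose animals carried the P segment against the 10 whose animals carried the NP segment, with the genetic background adjusted for. The arrays were chosen by strain alone, and they are all 20 arrays of the series. P and NP are inbred alcohol-preferring and alcohol-nonpreferring rats bred from a closed Wistar colony. NP.P rats carry the P segment 4q22-q34 on the NP background, and P.NP rats are the reciprocal line, with NP sequence there and P sequence elsewhere. The P segment group was therefore P and NP.P, and the NP segment group was NP and P.NP, with 5 arrays per strain and 1 array per animal. All animals were 4 weeks old and received no treatment that the labels name. The congenic strains came from repeated backcrossing and a final intercross, so each is 1 line with 1 transferred segment. The labels name both whole femora and the proximal femur, and the methods name the femur, so which part of the bone gave the RNA is not settled.

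A congenic strain differs from its recipient mainly in the transferred segment, and genes inside that segment can differ because their own regulatory or coding sequence came from the donor. Genes elsewhere in the genome carry recipient sequence in both strains, apart from any other donor DNA that the backcrosses left. The femur of a young rat holds bone, growth cartilage, osteoclasts, marrow fat and a marrow rich in red-cell precursors, and some genes of the segment, such as Kel, Aqp1 and Nt5c3a, are known for their work in red cells.

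Nt5c3a encodes the pyrimidine nucleotidase of maturing red cells, Kel the Kell blood group protein, and Aqp1 the red-cell water channel. All were higher with the P segment, and their promoters are shown because they are the members of the erythroid list in the segment that were called. The other 3 list members on chromosome 4, Mkrn1, Add2 and Bpgm, differed by 0.22, 0.23 and 0.17 and were not called. Each sequence runs from 250 bases before to 50 bases after the annotated start, in RefSeq's GRCr8 build. Capitals mark a match, on either strand, to AGATAA or to the same letters with T as the first, G as the last, or both, the motif bound by GATA factors, which are master regulators of red-cell genes.
Nt5c3a, chr4:87534789-87535088, minus strand: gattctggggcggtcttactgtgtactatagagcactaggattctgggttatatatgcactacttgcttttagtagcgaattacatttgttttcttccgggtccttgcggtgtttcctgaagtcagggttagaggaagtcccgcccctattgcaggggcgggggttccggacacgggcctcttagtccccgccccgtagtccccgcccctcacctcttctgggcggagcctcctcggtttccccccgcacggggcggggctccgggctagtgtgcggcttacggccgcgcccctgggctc
Kel, chr4:71551724-71552023, minus strand: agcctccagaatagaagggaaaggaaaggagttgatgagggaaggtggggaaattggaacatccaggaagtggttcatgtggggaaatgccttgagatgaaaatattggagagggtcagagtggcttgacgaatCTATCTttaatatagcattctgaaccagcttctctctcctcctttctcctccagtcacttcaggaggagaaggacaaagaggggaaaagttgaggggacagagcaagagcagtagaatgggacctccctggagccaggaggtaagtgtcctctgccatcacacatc
Aqp1, chr4:85812534-85812833, plus strand: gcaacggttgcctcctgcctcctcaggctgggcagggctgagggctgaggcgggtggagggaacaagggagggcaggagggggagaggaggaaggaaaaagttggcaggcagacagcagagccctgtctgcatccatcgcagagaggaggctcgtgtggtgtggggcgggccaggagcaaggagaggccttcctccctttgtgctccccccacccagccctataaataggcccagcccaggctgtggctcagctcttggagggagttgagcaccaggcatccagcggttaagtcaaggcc
The only match among them was in Kel, at position -116 from its start, and the letters were not found in the other windows. A match was held by 29.9% of the 27457 promoters in the table and by 20.8% of the 11700 whose gene has a named probe set. Of 79 genes called higher 70 had a promoter in the table and 19 of these held it (27.1%), and of 66 called lower 55 had a promoter and 14 of these held it (25.5%). These shares are a description of the windows and were not tested.

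The deposited values were MAS5 signals, linear intensities with a median of 291.9 to 322.3 per array. Correlation between arrays on the log2 scale ran from 0.919 to 0.939. Bone, osteoclast, cartilage, red-cell and muscle markers were all bright, with a mean signal of 75805 for Col1a1, 38219 for Acp5, 61402 for Col2a1, 69900 for Hbb and 52718 for Ckm, so the RNA held marrow, growth plate and some muscle as well as bone. The array of P replicate 2 stood apart in its cartilage genes, whose mean centred log2 signal was -1.59 there against -0.09 to 0.40 in the other P arrays. Without that array 205 probe sets were called in place of the 193 given next, 29 of them in the QTL region in place of 26.

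With limma and Benjamini-Hochberg adjustment at a false discovery rate of 10%, 193 of 31042 probe sets (0.622%) differed between the segments, 108 higher with the P segment (0.348%) and 85 lower (0.274%). These probe sets are referred to as called. An unadjusted p under 0.05 was reached by 2782. The median size of a called difference was 0.30 on the log2 scale, the smallest was 0.15, and 14 exceeded 2-fold. Arf5 and Ppp4r2, the outermost genes that the study listed on chromosome 4, were used as the limits of the QTL region, and 587 probe sets for 396 genes lay between them in gene order. In it 26 probe sets for 24 genes were called (4.43%), 14 higher and 12 lower. On the rest of chromosome 4, 4 of 691 were called (0.579%), and on the other chromosomes 120 of 19480 (0.616%), 68 higher and 52 lower. The other 43 calls had no position. Median size was 0.37 for the called probe sets of the region and 0.28 for those of other chromosomes. Only 11 probe sets (0.0354%) had 10 arrays of 1 segment that did not overlap with the 10 of the other, and 7 of these were in the region, namely Akr1b8, Mest, Nt5c3a, Zfp212, Tmem140, Akr1b10 and Ezh2. For Zfp212, Akr1b10 and Ezh2 this held at 1 probe set each, and their other probe sets were not called. Whether donor sequence at the probes themselves altered a signal in the region was not tested. The overall count rested partly on single arrays. It was 103 without NP.P replicate 4, 125 and 115 without P.NP replicates 3 and 4, and 119 and 112 without P replicates 3 and 5, while the count in the region stayed between 22 and 29 whichever array was left out.

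Calls in the region were not spread evenly. From Mest to Pyurf, a run of 159 genes, 25 of 240 probe sets were called (10.4%). Before Mest none of 44 was called, and after Pyurf 1 of 303 was (0.33%), the platelet gene Gp9. Of the genes listed by the study for this region, each read at its brightest probe set, 10 of 20 were called between Mest and Pyurf, 0 of 3 before and 0 of 18 after. Ghrhr, a listed gene between Mest and Pyurf, was called only at its dimmer probe set and is not among these 10. That list was chosen by the study on these arrays and is no independent evidence. It came from a test among all 4 strains on differently normalized values, with the probe sets of the region adjusted apart. A listed gene can differ between strains without a pooled segment effect, so a gene not called here does not contradict the study. The share with an unadjusted p under 0.05 in limma was 2.27% before Mest, 23.8% between Mest and Pyurf and 11.6% after Pyurf, beside 2782 of all 31042 probe sets. Both limits were set after the calls had been seen, so the split is a description. In fixed runs of 50 genes the shares were 9.59%, 7.14% and 12.9% for the genes ranked 201 to 250, 251 to 300 and 301 to 350, then 2.78% for the next run, and at most 1.79% in any other. Outside the region the chromosome 4 calls were Fgl2, Cd163 and Clec1b, all lower, and Cmas, higher.

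**Figure D1:**
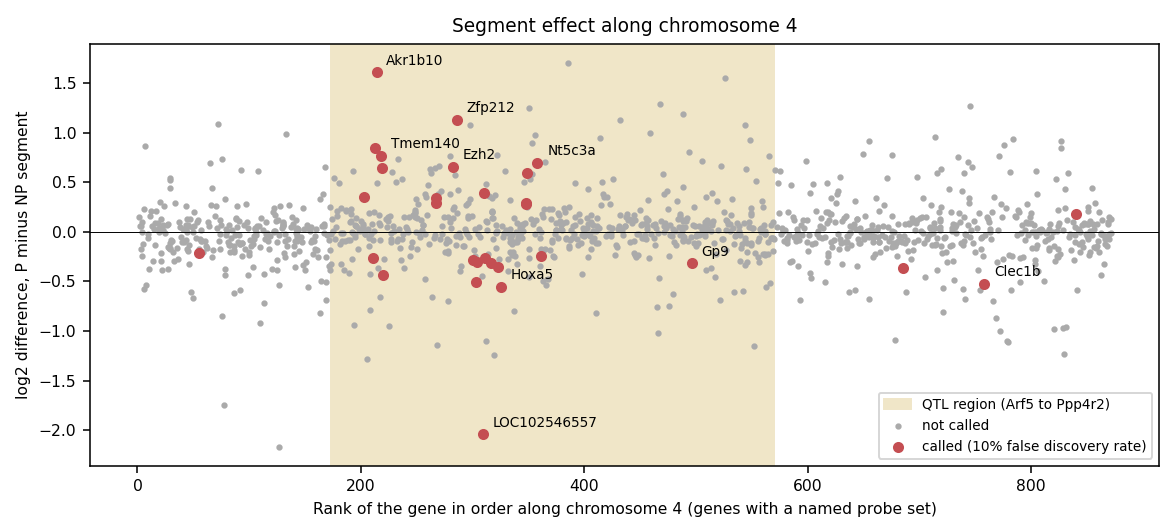
Log2 difference between P and NP segment arrays (P minus NP, background adjusted) for every named chromosome 4 probe set, against the rank of its gene along the chromosome. Red points are called at a false discovery rate of 10%, grey points are not, and the shaded band is the QTL region; 25 of the 26 called probe sets in the band lie between Mest and Pyurf.

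Nt5c3a had the smallest adjusted p of all probe sets. Its signal was 4819 to 6571 with a median of 5329 in P segment arrays and 2929 to 3926 with a median of 3344 in NP segment arrays, so the groups did not overlap. The difference was 0.69 ± 0.04 (SE, n = 10 and 10) on the log2 scale, or 1.61-fold, with a limma adjusted p of 3.87e-09. It was 0.75 on the NP and 0.63 on the P background. Ezh2, which encodes the methyltransferase subunit of the Polycomb repressive complex, had signals of 1985 to 2619 (median 2156) with the P segment and 1207 to 1712 (median 1412) with the NP segment, again without overlap. This was a difference of 0.65 ± 0.05 (adjusted p = 2.83e-07 in limma). The call was made by probe set 1395697_at alone. The brighter Ezh2 probe set, 1373290_at, differed by 0.14 ± 0.05 (adjusted p = 0.313 in limma) and a dim one, 1395543_at, by 0.23 ± 0.48.

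Tmem140 signals were 1228 to 2024 (median 1508) with the P segment and 726 to 1083 (median 922) with the NP segment, a difference of 0.77 ± 0.07 (adjusted p = 9.77e-07 in limma). The NP.P arrays, at 1596 to 2024, all lay above the P arrays, at 1228 to 1420, and both lay above every NP segment array. Akr1b8, an aldo-keto reductase that reduces aldehydes, had signals of 524 to 895 (median 736) against 331 to 454 (median 384), a difference of 0.84 ± 0.09 (adjusted p = 1.47e-05 in limma). Its neighbour Akr1b10 was dim and higher by 1.61 ± 0.33 at 1395190_at (adjusted p = 0.0258 in limma), with 207 to 294 in P segment arrays and 17.9 to 165 in NP segment arrays. At its other probe set, 1382034_at, the difference was 0.49 ± 0.18 (adjusted p = 0.351 in limma). Of the 5 aldo-keto reductase genes measured there, Akr1b8 was the only one called at its brightest probe set, and Akr1b1 differed by 0.20 (adjusted p = 0.206 in limma).

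Mest, an imprinted gene expressed from the paternal copy, had signals of 3948 to 5860 (median 4636) with the P segment and 3482 to 3812 (median 3610) with the NP segment. The groups did not overlap, and the difference was 0.35 ± 0.04 (adjusted p = 7.05e-05 in limma), 0.50 on the NP and 0.21 on the P background. Kel was called at both of its probe sets, with 0.29 ± 0.05 at 1374330_at and 0.34 ± 0.07 at 1398720_at. At the brighter one P segment arrays had 8630 to 13334 and NP segment arrays 7107 to 10284, so that the groups overlapped when pooled, yet NP.P lay wholly above NP and P wholly above P.NP. Aqp1 was likewise called at both, with 0.28 ± 0.05 and 0.30 ± 0.06, and showed the same arrangement at 1369625_at.

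The zinc finger gene Zfp212 was higher by 1.13 ± 0.20 at the dim 1380094_a_at (192 to 368 against 73.1 to 185) and differed by 0.19 ± 0.14 at the brighter 1386424_at (adjusted p = 0.758 in limma). Cyren, a regulator of DNA end joining, was higher by 0.65 ± 0.11, Gpnmb, a glycoprotein of osteoclasts and osteoblasts, by 0.40 ± 0.09, and Ghrhr, the growth hormone-releasing hormone receptor, by 0.60 ± 0.14 at 1 of its probe sets. The other Ghrhr probe set differed by 0.25 (adjusted p = 0.64 in limma).

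**Figure D2:**
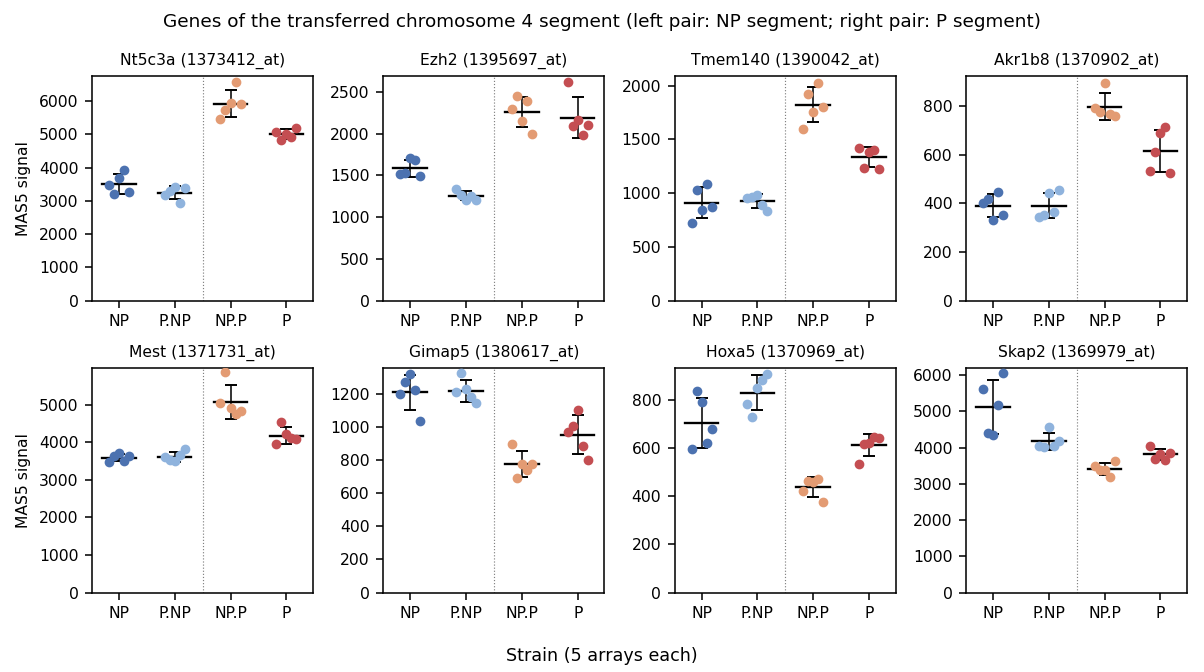
MAS5 signal of 8 genes of the QTL region in each array, by strain. Points are arrays, the long bar is the strain mean and the whiskers are ± SD (n = 5); the NP segment strains stand left of the dotted line and the P segment strains right of it, and the P segment arrays are the higher ones for Nt5c3a, Ezh2, Tmem140, Akr1b8 and Mest and the lower ones on average for Gimap5, Hoxa5 and Skap2.

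The genes of the region that were lower with the P segment included immune, patterning and signalling genes. Gimap5, a GTPase needed for lymphocyte survival, had signals of 693 to 1106 (median 841) with the P segment and 1037 to 1326 (median 1219) with the NP segment. Each congenic strain was separate from its recipient, and the difference was -0.50 ± 0.07 (adjusted p = 0.000453 in limma). Gimap6 was lower as well, by -0.28 ± 0.05, while the other 3 Gimap genes measured (Gimap1, Gimap4 and Gimap7) were not called, with differences from -0.18 to 0.16 at their brightest probe sets. The B lymphoid and the T and NK lymphoid marker lists had no member called. Their medians were both -0.38 on the NP background, and 0.05 and 0.11 on the P background. The part of lymphoid content in the Gimap differences was not tested.

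Hoxa5, a homeobox factor of axial patterning, had 375 to 648 (median 504) with the P segment and 596 to 907 (median 787) with the NP segment, a difference of -0.56 ± 0.08 (adjusted p = 0.00105 in limma). It was the only one of 5 Hoxa genes called. Hoxa9 and Hoxa10, both brighter, differed by -0.06 and -0.02. The neighbouring Skap2, an adaptor of Src kinase signalling, had 3191 to 4039 against 4009 to 6057 and a difference of -0.35 ± 0.05 (adjusted p = 0.00246 in limma). Its difference was -0.58 on the NP and -0.13 on the P background, though the test of the difference between backgrounds did not pass (adjusted p = 0.116 in limma).

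Npy, which encodes neuropeptide Y, had signals of 8558 to 10282 in NP, 5366 to 7025 in NP.P, 6088 to 7711 in P.NP and 5689 to 7073 in P rats. NP alone stood high, and the other strains overlapped. The segment effect was -0.32 ± 0.06 (adjusted p = 0.0143 in limma), -0.53 on the NP and -0.10 on the P background, with an adjusted p of 0.207 in limma for that contrast between backgrounds. Tmem176b was lower by -0.31 ± 0.06 while its neighbour Tmem176a differed by -0.03 (adjusted p = 0.955 in limma). Wdr91, an endosome maturation factor, was lower by -0.44 ± 0.08, Slc35b4, a nucleotide sugar transporter, by -0.26 ± 0.05, Pyurf by -0.24, Malsu1, a mitochondrial ribosome assembly factor, by -0.27, and Gp9, a subunit of the platelet receptor for von Willebrand factor, by -0.32. The second Slc35b4 probe set differed by -0.09 and the other Pyurf probe sets by -0.01 and -0.17, and none of these was called. The uncharacterized locus LOC102546557 was dim, with 6.68 to 121 in P segment arrays against 101 to 305, or -2.04 ± 0.44 (adjusted p = 0.0417 in limma). All its P segment signals lay under 169.7, the 40th percentile of mean signals, so the size of this difference is uncertain.

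On other chromosomes the genes called higher were led by Wdr26, a subunit of a ubiquitin ligase complex, on chromosome 13. At 1376621_at its signal was 6663 to 7723 (median 7166) with the P segment and 5228 to 6507 (median 5974) with the NP segment. It was the only named gene outside the region whose groups did not overlap. The difference was 0.29 ± 0.04 (adjusted p = 0.00246 in limma). A second of its 4 probe sets was called at 0.15, and the remaining ones differed by 0.02 and 0.08. Trak2, an adaptor for mitochondrial transport, was higher by 0.32 ± 0.05 (11387 to 15736 against 9585 to 12664, adjusted p = 0.00246 in limma), and its second probe set differed by 0.15 (adjusted p = 0.422 in limma).

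Ier3 is an immediate early gene of cell survival. Its signals were 4025 to 5247 in NP, 6113 to 7303 in NP.P, 2522 to 3825 in P.NP and 3271 to 4386 in P rats. NP.P lay wholly above NP, P and P.NP overlapped, and the segment effect was 0.45 ± 0.07 (adjusted p = 0.00424 in limma). The cell cycle factor E2f2 was higher by 0.31 (adjusted p = 0.00607 in limma), the nuclear transport receptor Xpo7 by 0.26, the amino acid transporter Slc43a1 by 0.22, Ypel5 by 0.26 and the membrane skeleton protein gene Epb41 by 0.31 at 1 of 2 probe sets. The brighter Epb41 probe set differed by 0.06 (adjusted p = 0.771 in limma). Scd, the desaturase that makes monounsaturated fatty acids, had the widest difference among these genes, with 1115 to 2385 (median 1599) against 360 to 1365 (median 884) and 1.04 ± 0.20 (adjusted p = 0.0192 in limma).

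The genes called lower on other chromosomes included several mast-cell and basophil proteases. Mcpt1l1 had 1354 to 2370 (median 1649) with the P segment and 2200 to 3194 (median 2621) with the NP segment, a difference of -0.55 ± 0.09 (adjusted p = 0.0039 in limma). The tryptase Tpsab1 was lower by -0.66 ± 0.12 (adjusted p = 0.0143 in limma) and the basophil protease Mcpt8 by -0.47 ± 0.09 (adjusted p = 0.0159 in limma). Tpsb2, a second tryptase, was lower by -0.48 and Cpa3, the mast-cell carboxypeptidase, by -0.39. These last 2 were named after their values had been seen, and no mast-cell list had been set, so the group is a description. In bulk RNA, fewer cells of a type and less RNA per cell cannot be told apart.

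Npas2, a transcription factor of the circadian clock, had 208 to 508 (median 259) with the P segment and 397 to 710 (median 518) with the NP segment, a difference of -0.87 ± 0.15 (adjusted p = 0.00607 in limma). Ucp3, a mitochondrial uncoupling protein of muscle and fat, was called at both of its probe sets, with -0.90 ± 0.16 and -0.92 ± 0.17. Its P.NP arrays, at 1324 to 2145 at 1387681_at, lay above all P arrays, at 415 to 756, while NP and NP.P overlapped. Shld2, a gene of double-strand break repair, was lower by -0.46 at 1 of 2 probe sets, and the other differed by 0.01 (adjusted p = 0.988 in limma). Alox12, the platelet lipoxygenase, was lower by -0.53.

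**Figure D3:**
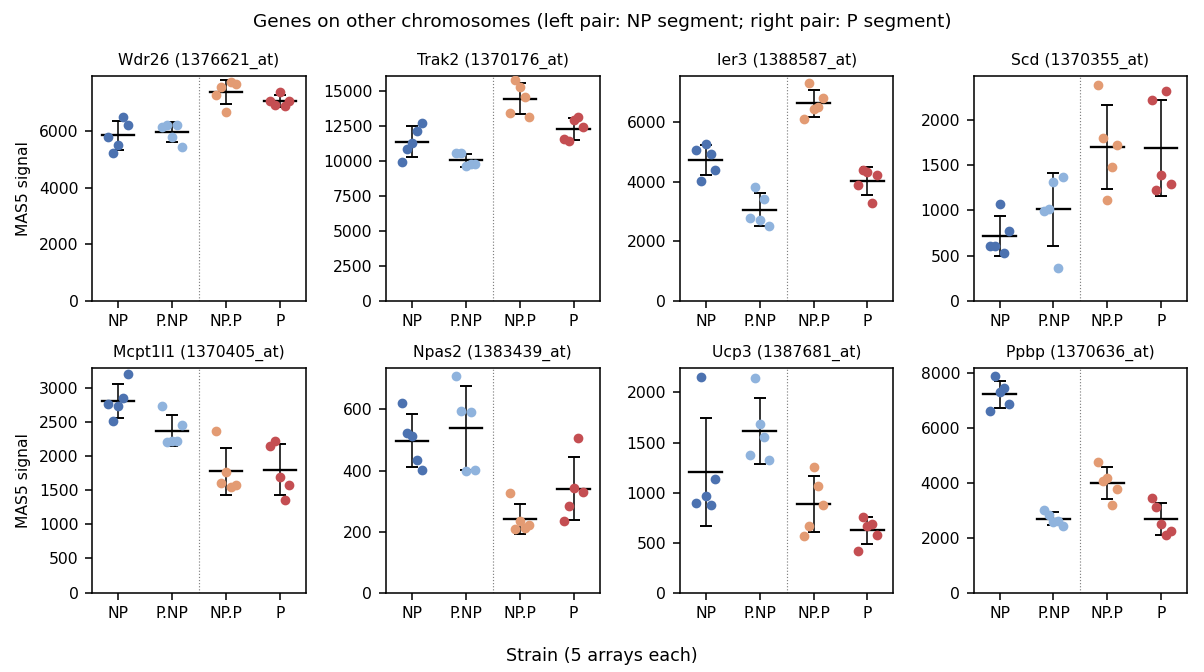
MAS5 signal of 8 genes on other chromosomes in each array, by strain, with strain means and ± SD (n = 5). NP segment strains stand left of the dotted line and P segment strains right of it; Wdr26, Trak2, Ier3 and Scd are higher and Mcpt1l1, Npas2, Ucp3 and Ppbp lower on average with the P segment, and the Ppbp difference lies between NP and NP.P only.

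Gene lists of cell types and processes were described by how many members were called and by their medians, and the erythroid list had the most calls. Of 36 erythroid genes measured at their brightest probe set, 9 were called higher and 0 lower, beside 0.348% and 0.274% of all probe sets. A positive difference was held by 35, and the median was 0.17, beside a median of -0.008 over all probe sets. The median was 0.25 on the NP and 0.11 on the P background. The called members were Aqp1, Kel and Nt5c3a of the segment and Rhd, Slc25a37, Fech, Alad, Hemgn and Xk elsewhere. Of the 6 members on chromosome 4, all but Aqp1 were also on the study's list, which was chosen on these arrays. Without these 6, the other 30 had a median of 0.15, with 6 called. Rhd, a Rhesus blood group protein, had 10692 to 16216 (median 14398) with the P segment and 9146 to 14342 (median 11808) with the NP segment, a difference of 0.21 (adjusted p = 0.0496 in limma). Fech and Alad, enzymes of haem synthesis, were higher by 0.19 and 0.23, Slc25a37, the mitochondrial iron importer, by 0.20, and Xk, the membrane partner of the Kell protein, by 0.27 (adjusted p = 0.0169 in limma). Defining red-cell genes were not all called, since Hbb differed by 0.02 (adjusted p = 0.959 in limma), the anion exchanger Slc4a1 by 0.07 and Alas2 by 0.16 (adjusted p = 0.222 in limma). Under quantile normalization 4 members of the list were called. Other genes known from red-cell precursors that were called higher, named after their values had been seen, were Sox6 (0.41), Plek2 (0.35), Abcb10 (0.23), Eif2ak1 (0.19) and Blvra (0.24).

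In the platelet list the differences were negative. Of 13 genes 4 were called lower (Ppbp, Gp5, Gp9 and Clec1b), beside 0.274% of all probe sets. Among the 13, 0 were positive and the median was -0.21. The median was -0.40 on the NP and -0.12 on the P background. MHC class II had 2 of 8 called lower (RT1-Db1 and Cd74), beside 0.274% of all probe sets, with a median of -0.16 that was -0.45 on the NP and 0.01 on the P background. The macrophage list had 2 of 13 called lower (Cd163 and C1qc), beside 0.274% of all probe sets. Its median was -0.10, which was -0.18 and -0.10 on the 2 backgrounds. The adipocyte list had 2 of 12 called higher (Scd and Adipoq, 1.04 and 0.42), beside 0.348% of all probe sets, 4 negative members and a median of 0.09, which was 0.15 on the NP and -0.08 on the P background. The cell division list had 1 of 19 called higher, Mki67 (0.17), beside 0.348% of all probe sets. It had 2 negative members and a median of 0.10. The immediate early and heat stress list had 1 of 14 called higher, Ier3, beside the same 0.348%, and a median of 0.03. No member was called in the osteoblast (20 genes, median -0.05), osteoclast (11, median -0.04), cartilage (16, median -0.10), skeletal muscle (17, median 0.08), granulocyte (11, median -0.06), B lymphoid (8, median -0.17), T and NK lymphoid (14, median -0.11), endothelial (11, median -0.03), interferon (16, median 0.01) and hypoxia (15, median 0.00) lists. Several of these medians joined opposite signs on the NP and the P background. They were -0.35 and 0.19 for granulocyte, -0.38 and 0.05 for B lymphoid, -0.38 and 0.11 for T and NK lymphoid, and 0.11 and -0.33 for cartilage genes. Skeletal muscle, osteoclast and hypoxia lists also differed in sign, while osteoblast, endothelial and interferon lists did not. A member that was not called is not shown to be unchanged, and the number of arrays limits how small a difference could pass.

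**Figure D4:**
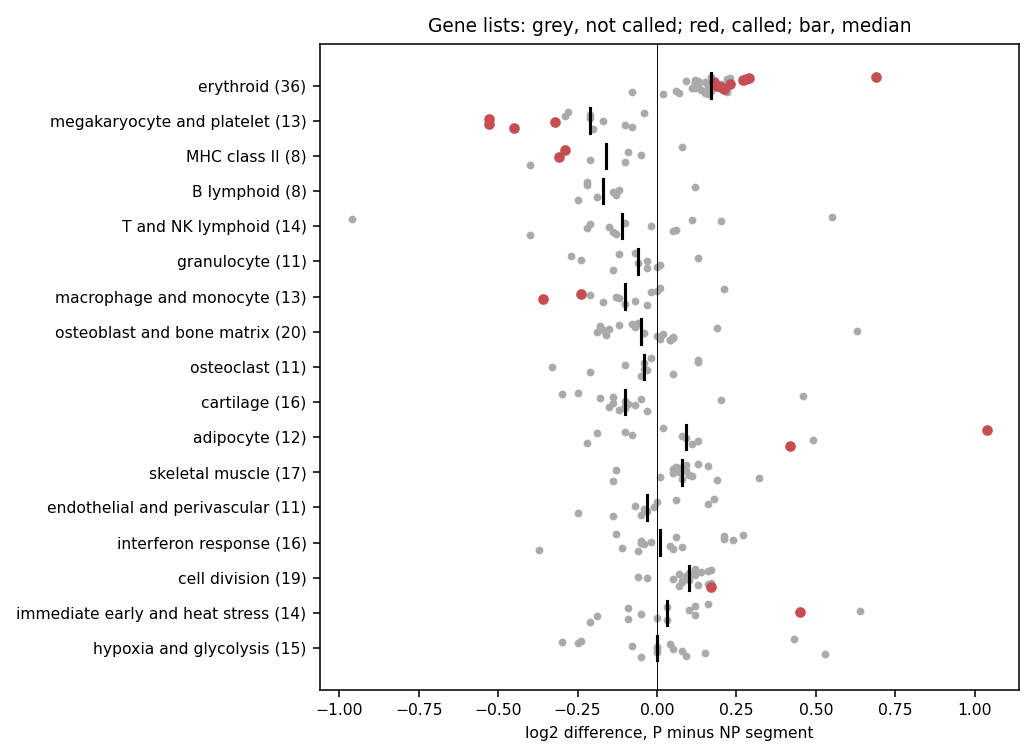
Log2 difference between P and NP segment arrays for the members of each list, each gene read at its brightest probe set, with the number of genes measured in brackets. Red points are called at a false discovery rate of 10%, grey points are not, and the black bar is the list median, which is 0.17 for erythroid and -0.21 for platelet genes.

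The red-cell signal of an array moved with the segment and is set beside the counts for that reason. The summed signal of the erythroid list was 516000 to 685000 in P segment and 485000 to 617000 in NP segment arrays, and the mean centred log2 signal of the list was -0.14 to 0.29 (median 0.10) and -0.27 to 0.10 (median -0.10). By strain it was 0.18 to 0.29 in NP.P, -0.07 to 0.10 in NP, -0.14 to 0.01 in P and -0.27 to -0.13 in P.NP rats. When the mean over the 30 members off chromosome 4 was added to the model as a covariate, 2 calls were left of 193, Nt5c3a (0.54 ± 0.07, adjusted p = 0.00173 in limma) and Ezh2 (0.64 ± 0.09, adjusted p = 0.0139 in limma), and 0 on other chromosomes, where 56 of the 120 had an unadjusted p under 0.05 in limma. The covariate itself differed with the segment, by 0.215 on the NP and 0.0799 on the P background, and the standard errors of the 193 were larger by a median factor of 1.72. Median size went from 0.37 to 0.39 in the region and from 0.28 to 0.21 on other chromosomes, all 193 kept their sign, and 101 had an unadjusted p under 0.05, among them Tmem140 (0.64), Akr1b8 (0.78), Mest (0.34), Hoxa5 (-0.71), Npy (-0.43) and Wdr26 (0.34). Aqp1, which is not part of the covariate, went from 0.28 to 0.09. Akr1b10 went from 1.61 to 0.76, Xpo7 from 0.26 to 0.11 and Gimap6 from -0.28 to -0.15. Slc35b4 went from -0.26 to -0.14 and Gp5 from -0.53 to -0.18. None of the genes from Aqp1 to Gp5 kept an unadjusted p under 0.05 in limma at these probe sets. Members of the covariate itself are counted in these totals but are not read in this fit, because the covariate is built from them. The part of red-cell content in the differences was not tested. The 3′ to 5′ ratio of beta-actin was 1.85 to 2.31 (median 2.06) with the P segment and 2.01 to 2.39 (median 2.25) with the NP segment, and that of GAPDH 1.08 to 1.15 and 1.03 to 1.13; their part was not tested.

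The segment effect is the mean of 2 differences that share no array, NP.P minus NP and P minus P.NP. Tested alone, the first had 392 calls (1.26%) and the second 51 (0.164%). Of the 193 called probe sets, 184 had the same sign on both backgrounds, a count that choosing them by their mean favours; over all probe sets, the share with the same sign was 53.7% in the region and 51.5% on other chromosomes. The difference was larger on the NP background in 149 of the 193, in 17 of 26 of the region and in 95 of 120 on other chromosomes. The same share over all probe sets was not counted, so these counts are not shown to be particular to the called probe sets. Median size was 0.50 on the NP and 0.35 on the P background in the region, and 0.35 and 0.20 on other chromosomes.

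**Figure D5:**
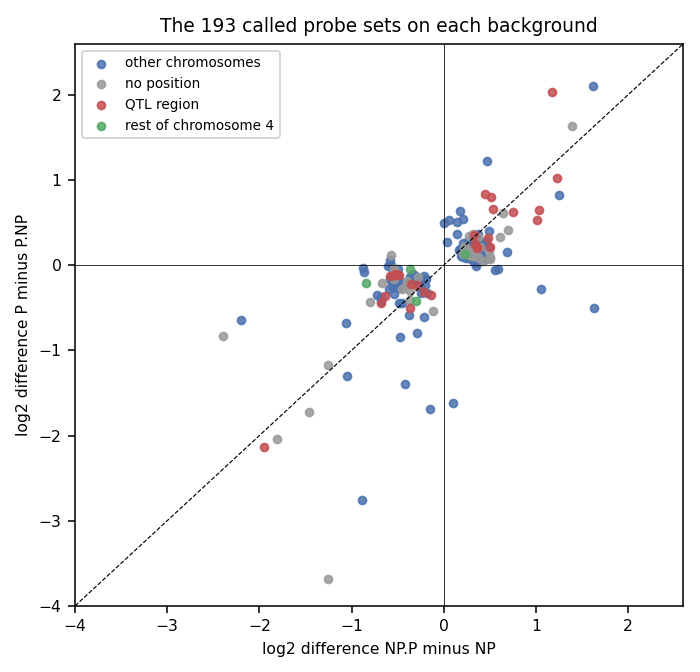
Log2 difference on the P background (P minus P.NP) against that on the NP background (NP.P minus NP) for the 193 called probe sets, coloured by position. The dashed line marks equal differences; most points lie in the quadrants of equal sign, 184 of 193, and 149 are farther from 0 on the NP background.

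The segment by background interaction was called for 81 of 31042 probe sets (0.261%) and for 11 of the 193. The platelet chemokine gene Ppbp had 6614 to 7885 in NP and 3182 to 4764 in NP.P rats, but 2437 to 3011 in P.NP and 2111 to 3425 in P rats. Its difference was -0.87 ± 0.11 on the NP and -0.03 ± 0.11 on the P background, which differed by 0.84 (interaction adjusted p = 0.0321 in limma). RT1-Db1, an MHC class II beta chain, had 1005 to 1145 in NP and 643 to 792 in NP.P rats, with -0.60 and -0.01 on the 2 backgrounds (interaction adjusted p = 0.0401 in limma). Mcpt8 behaved alike, with -0.86 and -0.08 (interaction adjusted p = 0.0897 in limma). For these genes the pooled value is the mean of a difference on the NP background and a value near 0 on the P background.

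The other called interactions were named after their values had been seen. On the NP and the P background the differences were 0.56 and -0.06 for Ptgfrn, 0.59 and -0.04 for Tinagl1, 1.06 and -0.28 for Clic2, and -0.58 and 0.06 for F5, a coagulation factor. Mylk3, a myosin light chain kinase of heart muscle, had 770 to 1267 in NP.P against 228 to 458 in NP rats, and 211 to 387 in P against 335 to 440 in P.NP rats. These are differences of 1.63 and -0.50, so its pooled value of 0.56 is the mean of opposite directions (interaction adjusted p = 0.000665 in limma). Angptl4, an inhibitor of lipoprotein lipase, differed by 0.10 on the NP and -1.62 on the P background, where P arrays had 406 to 1259 and P.NP arrays 1661 to 3176. Ucp3 differed by -0.15 and -1.69 at 1382958_at (interaction adjusted p = 0.0803 in limma) but by -0.42 and -1.39 at 1387681_at, where the interaction was not called (adjusted p = 0.365 in limma).

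Of the 145 named genes called, 56 had more than 1 probe set. In 5 of them at least 2 were called, in 0 were calls opposite, and 61 of the 78 probe sets not called had the direction of the called one. Some of the largest differences belonged to probe sets without a gene name. At 1378546_at the signal was 160 to 344 with the P segment and 502 to 690 with the NP segment, a difference of -1.22 ± 0.13 (adjusted p = 2.26e-05 in limma), -1.26 and -1.17 on the 2 backgrounds. At 1393397_at it was 42.6 to 210 against 243 to 383, or -1.59 ± 0.24, and at 1397034_at it was 132 to 411 against 29.7 to 165, or 1.51 ± 0.30. In the first and the second of these the 10 arrays of each segment did not overlap.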

How the data were processed

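Each of 20 femur RNA samples was hybridized to its own Affymetrix array. The values deposited by the authors, who used GCOS for the images, are MAS5 signals, linear intensities scaled per array; the submitters' processing notes name MAS5. The robust multichip average values and detection calls of the methods were not used here.

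Signals under 1 (190 values) were set to 1 and taken to log2. Of 31099 probe sets, 57 controls were left out. Of the remaining 31042, 20826 carried 1 gene symbol, 436 several and 9780 none, and those with 1 symbol were named. Gene order came from RefSeq's GRCr8 gene table, which placed 20758. The 4 strain means were fitted to all of them in limma 3.58.1 (R 4.3.3) with a mean-variance trend, 16 residual and 6.96 prior degrees of freedom, and Benjamini-Hochberg adjustment at a false discovery rate of 10%. The segment effect was the mean of NP.P minus NP and P minus P.NP. Figures were drawn with matplotlib 3.10.9 in Python 3.11.15. The fit was tested on simulated data. Nothing in the labels tells whether animals of a strain shared a litter. The number of arrays limits the precision.

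Lists were read at each gene's brightest probe set. Named genes were the 15 higher and 15 lower with the smallest adjusted p, the 8 and 8 on other chromosomes, and called members of the lists and of the study's chromosome 4 list, with the interaction given where it passed in one of these; genes outside this rule, including some called genes of the region, were chosen after their values were seen. The comparison, the lists and the rule were chosen with earlier results of these data known. Alternatives were a filter at the 40th or 60th percentile of mean signal, no trend, quantile normalization, an offset of 21.7 before the log, a rate of 5%, an additive model, an unequal-variance test of the pooled segments (the methods' test, there used between single strains on other values), an erythroid covariate, all of chromosome 4 or adjustment over the region alone, a replicate block, and each array left out.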

Additional observations from a re-analysis of the deposited data

Results flagged for a closer look

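Within a strain, 1 array lay far from the other 4 in 20 of 280 groups examined, on 12 arrays; chance gives about 1 in 20 groups. Among genes of the region, Akr1b8 was high at 895 in NP.P replicate 3 (759 to 790 in the others), Aqp1 high at 14864 in P replicate 5 (11623 to 12220), Hoxa5 low at 536 in P replicate 1 (617 to 648), Wdr91 low at 751 in P.NP replicate 1 (944 to 974), Slc35b4 low at 1782 in P.NP replicate 2 (1961 to 2011) and Gpnmb low at 8628 in P replicate 2 (12970 to 15084). Elsewhere, Npas2 was high at 327 in NP.P replicate 1 (208 to 234), Scd low at 360 in P.NP replicate 4 (995 to 1365) and Rhd high at 13551 in P replicate 5 (10692 to 11169).

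The other far values were mean centred log2 signals of lists. NP replicate 2 was low for MHC class II (0.41, against 0.58 to 0.64) and B lymphoid genes (-0.20, against 0.15 to 0.22). P.NP replicate 2 was low for T and NK lymphoid (-0.56, against 0.08 to 0.20) and cartilage genes (-0.38, against 0.13 to 0.23), and P replicate 2 was low for cartilage genes (-1.59, against -0.09 to 0.40). P.NP replicate 3 was low for osteoblast genes (-0.17, against 0.06 to 0.14) and high for adipocyte genes (0.29, against -0.17 to -0.06), as was P replicate 4 (0.17, against -0.13 to -0.05). In NP.P rats, replicate 1 was low for cell division (0.10, against 0.15 to 0.16) and for the study's chromosome 4 list (0.0, against 0.06 to 0.07), and replicate 2 was high for the Tmem176 pair (-0.07, against -0.18 to -0.15).

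The segment effect differed between backgrounds, by the interaction in limma, for 3 of the genes named by the rule. The effect on the P background minus that on the NP background was 0.84 for Ppbp, 0.78 for Mcpt8 and 0.59 for RT1-Db1.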

How the results depend on the processing

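The overall count of 193 was 334 with the 60th percentile filter, 60 without the trend, 103 at a rate of 5%, 127 in the additive model, 127 with the unequal-variance test (64.6% of them higher, against 56%) and 2 with the erythroid covariate. On other chromosomes 120 became 219, 24, 54, 69, 72 and 0 in that order. In the region 26 became 16 without the trend, 2 with the covariate and 46 when adjusted over the region alone. The 9 erythroid members called became 16 with the 60th percentile filter, 4 without the trend and 4 with quantile normalization. With the covariate 1 was left, but 6 of the 9 are part of that covariate, so this count is not read. The 81 interactions became 136 with that filter, 17 without the trend, 42 at a rate of 5% and 26 with the covariate. The remaining settings stayed within 1.5 times, and the cause of these shifts was not tested.

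With 1 array left out, the overall count ran from 103 to 236, the region from 22 to 29, other chromosomes from 51 to 152, erythroid members from 6 to 12 and interactions from 39 to 133. The count on other chromosomes was 51 without NP.P replicate 4, 59, 73 and 74 without P.NP replicates 4, 2 and 3, 61, 64 and 72 without P replicates 5, 3 and 4, and 76 without NP replicate 1. The erythroid count of 6 was without NP.P replicate 4. The interaction count was 39 and 43 without NP.P replicates 4 and 2, 40, 52, 53 and 133 without NP replicates 3, 4, 1 and 2, 53 without P.NP replicate 2 and 50 without P replicate 5.

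None of the 48 named genes reversed direction, 46 of them being present with the 60th percentile filter. Their call was lost by 46 with the covariate, and these include the 6 that are part of the covariate itself. It was lost by 17 without the trend, 14 with the unequal-variance test, 9 in the additive model and 9 at a rate of 5%. Quantile normalization ended the call of 8 and the replicate block that of 2. Leaving out single arrays ended the calls of Cd163 (16 of the 20 arrays), Adipoq (12), Gp9 (12), Gpnmb (12), Cd74 (11), Gp5 (11), Hemgn (9), C1qc (8), Mki67 (6), Fech (5) and Rhd (3), and of no other.

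Replicate numbers did not pair the samples: deviations of same-numbered arrays correlated from -0.0272 to 0.0681 over 30 pairs, and 6 of 20 arrays were closest to their own number. With the replicate block 227 probe sets were called (174 of them shared), 28 in the region, 141 on other chromosomes, 10 erythroid members and 108 interactions.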

Other observations

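Calls per chromosome, outside the comparison of region and rest, ranged from 0.234% of the probe sets of chromosome 7 to 1.23% on chromosome 13 (8 of 652), which holds Wdr26, Creg1, F5, Rgs18, Rab29, Klhl12 and Ctse, beside 2.35% on chromosome 4; chromosome Y had 0 of 5. Genes of platelet and myeloid biology outside the lists, named after their values had been seen, were also called lower with the P segment. Slc6a4, the serotonin transporter that loads platelets, differed by -0.44 ± 0.11, Rasgrp2, an activator of platelet integrins, by -0.37 ± 0.09, Gucy1b1, a subunit of the nitric oxide receptor, by -0.44 ± 0.10, and Runx1, a transcription factor of megakaryocytes, by -0.37 ± 0.09 (limma adjusted p from 0.0382 to 0.0954). Rasgrp2, Gucy1b1 and Runx1 each had another probe set that was not called, at -0.25, -0.22 and -0.14. That of Runx1 was much the brighter one, with a mean signal of 3440 against 640 (adjusted p = 0.758 in limma). Irf8, a transcription factor of monocytes and dendritic cells, differed by -0.30 ± 0.07 (adjusted p = 0.0824 in limma). Some wide differences were at very dim probe sets. Amelx, an enamel protein gene, differed by 1.87 ± 0.47 at 1369589_x_at. Its signal there was 11.6 to 119 in P segment arrays and 4.03 to 44.4 in NP segment arrays, and the groups overlapped. At its other probe sets, also dim and not called, it differed by 0.17, -0.48 and -2.02 ± 0.73, so the direction was not shared.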
